A study of Homo sapiens with 4 samples.

Results

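The enzymes that attach lipids to proteins, and those that finish the lipid end, were followed in endometrial cancer cells given siRNA against Efp. A set of 10 genes, of 18417 genes measured, is described: the palmitoyltransferases ZDHHC16, ZDHHC13, ZDHHC9, ZDHHC5, ZDHHC17 and ZDHHC20, the partner protein gene GOLGA7, the prenyltransferase subunit gene FNTA, and the CAAX-processing enzymes RCE1 and ICMT. The set was chosen from the siEfp readout of these same arrays, because ZDHHC16, ZDHHC13, GOLGA7 and ICMT were all lower with siEfp in both cell lines. The differences between siEfp and siControl are therefore given as a description without a test, and they are not evidence that the pathway as such responds.

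S-palmitoylation is the attachment of a fatty acid to cysteines through a thioester bond, which thioesterases can cut again. It is carried out by zDHHC enzymes in the membranes of the endoplasmic reticulum, the Golgi and the cell surface, and it holds Ras proteins, Src-family kinases, G-protein α subunits and caveolin at membranes. Proteins that end in a CAAX motif follow another route: a farnesyl or geranylgeranyl group is joined to the cysteine in the cytosol, RCE1 or ZMPSTE24 removes the last residues at the endoplasmic reticulum, and ICMT methylates the exposed cysteine. HRAS uses both routes, since it is farnesylated, cleaved, methylated and then palmitoylated by the complex of ZDHHC9 with GOLGA7.

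The study compared cells treated with siControl, a negative control siRNA, with cells treated with siEfp, which targets Efp, the ubiquitin ligase also known as TRIM25, to learn what the cells need Efp for. Both lines come from endometrial adenocarcinomas: Ishikawa cells are well differentiated and carry ERα, the estrogen receptor, and HEC-1A cells are moderately differentiated and ERα-negative. They were grown in DMEM with 10% fetal bovine serum and carried no other treatment that the labels name. There were 4 arrays, a siControl and a siEfp array for each of the 2 lines. Per the study's methods, siRNA was used at 10 nM, and the Ishikawa arrays hold RNA taken 48 h after siEfp #A. For HEC-1A the sources used here name neither the siEfp duplex nor the time. Each array stands for 1 culture, and with 1 array per condition no siEfp difference has a replicate within its line. With 1 siEfp array per line, loss of Efp and any other effect of the siEfp duplex cannot be told apart.

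The authors deposited RMA signals, which are background-corrected, normalized and summarized probe intensities on the log2 scale, so a difference of -1 is a 2-fold lower signal. For TRIM25 (probe set 8016847) the log2 signals were 9.42 with siControl and 7.96 with siEfp in Ishikawa, and 9.50 and 7.93 in HEC-1A. Both siEfp arrays were low, as their labels say, with -1.46 in Ishikawa and -1.57 in HEC-1A as siEfp minus siControl. The array medians lay between 5.63 and 5.69. Over probe sets the correlation was 0.992 and 0.993 within the lines and 0.956 to 0.958 across them. The keratin genes KRT8, KRT18 and KRT19 and the Müllerian factor PAX8 had signals of 8.60 or more on all 4 arrays. EPCAM was at 11.24 on both Ishikawa arrays and at 7.26 and 7.05 in HEC-1A, and the epithelial cadherin gene CDH1 was at 10.22 and 9.62 in Ishikawa but only at 4.07 and 3.74 in HEC-1A. ESR1, which encodes ERα, was at 6.91 and 6.65 in Ishikawa and at 4.45 and 4.77 in HEC-1A. PGR, the progesterone receptor gene, lay between 3.22 and 3.26 on all 4 arrays. Of the markers of other cell types, the stromal gene DCN was at 2.96 or less, the endothelial gene PECAM1 at 3.32 or less and the leukocyte gene PTPRC at 3.17 or less, near the low end of the signals. Other markers in those lists were brighter, with VWF between 4.17 and 5.21, CD14 at 4.89 or more, COL3A1 between 5.41 and 5.58 and the collagen gene COL1A1 between 6.37 and 7.40. All 5 epithelial markers were lower with siEfp in both lines, as were 26.7% of all genes. Their medians were -0.20 and -0.21, and their part in the results below was not tested. In RNA from a whole culture, fewer cells of a kind and less of a transcript per cell cannot be told apart.

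Each of the 10 genes had 1 probe set, and their signals lay between 7.45 and 10.45, with 0 of 10 below the median of the genes on any array. In each line 7 of the 10 were lower with siEfp and 3 were higher, and these were the same genes in both lines. Of all genes 47.6% were lower in Ishikawa, 47.7% in HEC-1A and 26.7% in both, and 31.1% were higher in both. The median difference of the set was -0.52 in Ishikawa and -0.25 in HEC-1A, beside 0.01 over all genes in both lines. At least 2-fold lower were 4 of 10 in Ishikawa and the same 4 genes in HEC-1A, where 0.804% and 0.271% of all genes passed that limit, and 0.174% passed it in both lines. The rule used this contrast, so nothing is read from the gap to those percentages. None of the 10 was at least 2-fold higher (0.136% of all genes in Ishikawa, 0.103% in HEC-1A and 0.0109% in both). Just inside the limit in both lines were GOLGA7 and ZDHHC13, whose smaller decreases were -1.18 each. The next member outside was ZDHHC9, well short of the limit, with -0.33 as its smaller decrease.

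**Figure D1:**
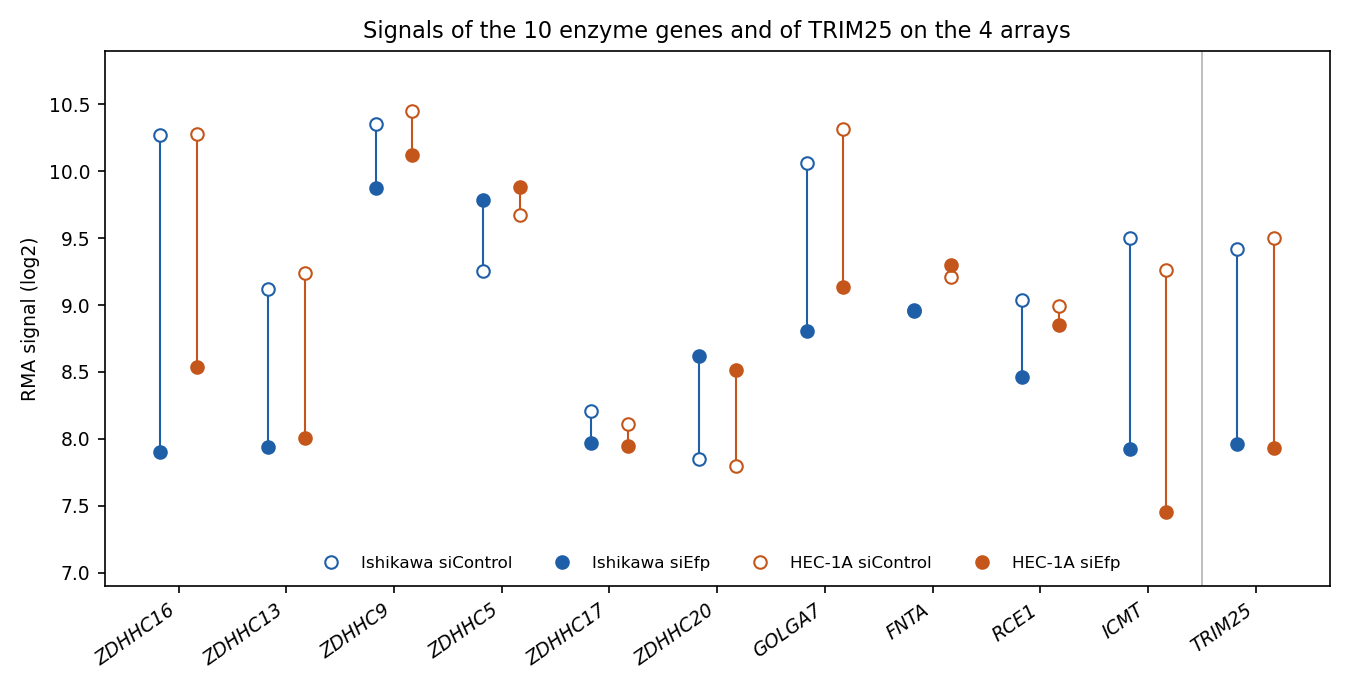
RMA signal (y axis, log2) of the 10 enzyme genes and of TRIM25, the siRNA target, right of the grey line. Open circles are siControl arrays, filled circles siEfp arrays, blue is Ishikawa, orange is HEC-1A, and a line joins the 2 arrays of a cell line, 1 array per point. ZDHHC16 drops from 10.27 to 7.90 in Ishikawa and from 10.28 to 8.54 in HEC-1A, while ZDHHC20 lies higher with siEfp in both lines.

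ZDHHC16 was the furthest down of the palmitoyltransferases. It encodes an enzyme that palmitoylates phospholamban in heart muscle and that also palmitoylates another zDHHC enzyme, ZDHHC6, in a cascade. The log2 signals of ZDHHC16 (probe set 7929634) were 10.27 with siControl and 7.90 with siEfp in Ishikawa, and 10.28 with siControl and 8.54 with siEfp in HEC-1A. The siControl arrays of the lines were alike, and both siEfp arrays were far below them. The difference was -2.37 in Ishikawa, 5.18-fold lower and the lowest of all 18417 genes. In HEC-1A it was -1.74, 3.34-fold lower and at place 3 from the lowest. The decrease in HEC-1A was smaller by 0.63 on the log2 scale. Over all genes the gaps between the lines, scaled to a single line, had an SD of 0.229. This leaves out what the lines share, so it is not the full spread of the siEfp differences. An unscaled gap spreads wider, so 0.63 is not to be read as a multiple of 0.229. The gap of ZDHHC16 has no test, since each line has 1 array per condition.

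ICMT was the other gene at the very end of the ranking. It encodes isoprenylcysteine carboxyl methyltransferase, the enzyme that methylates Ras and lamin proteins as the last step of CAAX processing. The log2 signals of ICMT (probe set 7911993) were 9.50 with siControl and 7.92 with siEfp in Ishikawa, and 9.26 with siControl and 7.45 with siEfp in HEC-1A. Both siEfp arrays lay below both siControl arrays. The difference was -1.58 in Ishikawa, 2.98-fold lower and at place 18 from the lowest, and -1.81 in HEC-1A, 3.51-fold lower and the lowest of all genes. In a ranking of all genes by whichever line had the smaller decrease, ZDHHC16 stood at place 1 and ICMT at place 2.

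The promoters of ZDHHC16, ICMT and ZDHHC20 are printed because these genes had the furthest differences of the set in both lines, the first pair downwards and ZDHHC20 upwards. The sequences are the 250 bases before the RefSeq transcription start in GRCh38.p14, read 5′ to 3′ on the strand of the gene, at chr10:97445925-97446174 (plus strand) for ZDHHC16, chr1:6235965-6236214 (minus strand) for ICMT and chr13:21459304-21459553 (minus strand) for ZDHHC20. Capitals mark matches, on either strand, to the CCAAT box (CCAAT or ATTGG), the GC box (GGGCGG or CCGCCC), the E-box (CACGTG) and the NF-κB motif, a factor family whose response genes the study examined.
ZDHHC16: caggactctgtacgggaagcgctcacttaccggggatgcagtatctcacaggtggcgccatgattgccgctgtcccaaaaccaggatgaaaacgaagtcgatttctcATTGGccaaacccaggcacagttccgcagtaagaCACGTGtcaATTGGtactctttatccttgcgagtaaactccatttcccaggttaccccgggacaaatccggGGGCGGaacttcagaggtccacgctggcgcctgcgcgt
ICMT: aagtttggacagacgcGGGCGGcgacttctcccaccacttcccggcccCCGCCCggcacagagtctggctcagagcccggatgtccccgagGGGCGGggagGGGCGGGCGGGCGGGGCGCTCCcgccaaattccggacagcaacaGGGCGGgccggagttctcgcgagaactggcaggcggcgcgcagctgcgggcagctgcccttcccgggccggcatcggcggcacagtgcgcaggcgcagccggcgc
ZDHHC20: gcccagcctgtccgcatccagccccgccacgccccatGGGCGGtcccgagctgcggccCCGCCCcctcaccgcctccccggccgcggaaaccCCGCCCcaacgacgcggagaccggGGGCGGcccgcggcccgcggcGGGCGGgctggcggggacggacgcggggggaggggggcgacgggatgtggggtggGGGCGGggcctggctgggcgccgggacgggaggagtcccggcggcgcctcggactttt

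The 3 promoters differ in these letters. ZDHHC16 held 2 CCAAT boxes, 143 and 100 bases before the start, 1 E-box at 109 bases and 1 GC box at 38 bases, and 55.2% of its bases were G or C. ICMT held 7 GC boxes, several of them overlapping, and 1 NF-κB motif that overlaps a GC box, with 75.2% G or C. ZDHHC20 held 6 GC boxes and no other of the motifs, with 82.4% G or C. The median over all promoters of this length was 58.0%. Promoters were matched by symbol for 7 of the 10 genes, all but ZDHHC13, GOLGA7 and FNTA. Those 7 genes have 9 promoters in the table, as ZDHHC9 and ZDHHC17 have more than 1. A GC box was found in 8 of the 9, all but the second of ZDHHC17, and in 42.6% of all 35116 promoters. A CCAAT box was found in 3 of 9, of ZDHHC16, ZDHHC9 and ZDHHC5, and in 11240 of all. An NF-κB motif was found in 2 of 9, of ICMT and the second of ZDHHC9, and in 9.96% of all, and an E-box in that of ZDHHC16 and in 6.34% of all. These matches describe letters and do not show a bound factor.

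ZDHHC13 and GOLGA7 were lower by similar amounts in both lines. ZDHHC13 encodes an ankyrin-repeat palmitoyltransferase also known as HIP14L, a relative of the ZDHHC17 enzyme. The log2 signals of ZDHHC13 (probe set 7938816) were 9.12 with siControl and 7.94 with siEfp in Ishikawa, and 9.24 with siControl and 8.01 with siEfp in HEC-1A, so the lines had nearly the same levels in each condition. Its differences were -1.18 in Ishikawa, 2.27-fold lower, and -1.23 in HEC-1A, 2.34-fold lower. GOLGA7, also known as GCP16, encodes the Golgi protein that ZDHHC9 needs for its activity. The log2 signals of GOLGA7 (probe set 8146122) were 10.06 with siControl and 8.80 with siEfp in Ishikawa, and 10.31 with siControl and 9.14 with siEfp in HEC-1A. Its differences were -1.26 in Ishikawa, 2.39-fold lower, and -1.18 in HEC-1A, 2.26-fold lower. In both genes the siEfp arrays lay below the siControl arrays of either line, and the differences of the lines lay within 0.1 of each other.

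The catalytic partner of GOLGA7 was lower by much less. ZDHHC9, the Golgi palmitoyltransferase of HRAS, had log2 signals of 10.35 and 9.88 in Ishikawa siControl and siEfp, and of 10.45 and 10.12 in HEC-1A in the same order, which holds for the pairs below. The differences of -0.47 and -0.33 are 1.39-fold and 1.26-fold lower, against -1.26 and -1.18 for GOLGA7. ZDHHC5, an enzyme of the cell surface which also works with GOLGA7, lay the other way: its signals were 9.25 and 9.79 in Ishikawa and 9.68 and 9.88 in HEC-1A. Its differences were 0.54, or 1.45-fold higher, and 0.21, or 1.15-fold higher. Of the complexes in which GOLGA7 is a subunit, the partner gene was at least 2-fold lower in both lines and the catalytic genes were not.

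The relative of ZDHHC13 stayed close to its control level. ZDHHC17, or HIP14, which palmitoylates huntingtin and synaptic proteins, had log2 signals of 8.21 and 7.97 in Ishikawa and of 8.11 and 7.94 in HEC-1A. Its differences were -0.24 and -0.17. ZDHHC20, which palmitoylates the EGF receptor, was the one member of the set that was at least 1.5-fold higher in both lines, a size that 0.179% of all genes reached. Its log2 signals were 7.85 in Ishikawa siControl, 8.62 in Ishikawa siEfp, 7.80 in HEC-1A siControl and 8.52 in HEC-1A siEfp. Both siEfp arrays lay above both siControl arrays, by 0.77 in Ishikawa, 1.70-fold, and by 0.72 in HEC-1A, 1.65-fold, and the gene stood at place 90 from the highest in each line. The same size downwards was reached in both lines by 4 of 10, the same 4 genes as at 2-fold, beside 0.961% of all genes. By their names the RefSeq table lists 4 pseudogenes of ZDHHC20 and 2 of FNTA, so probes of these genes could bind copies.

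**Figure D2:**
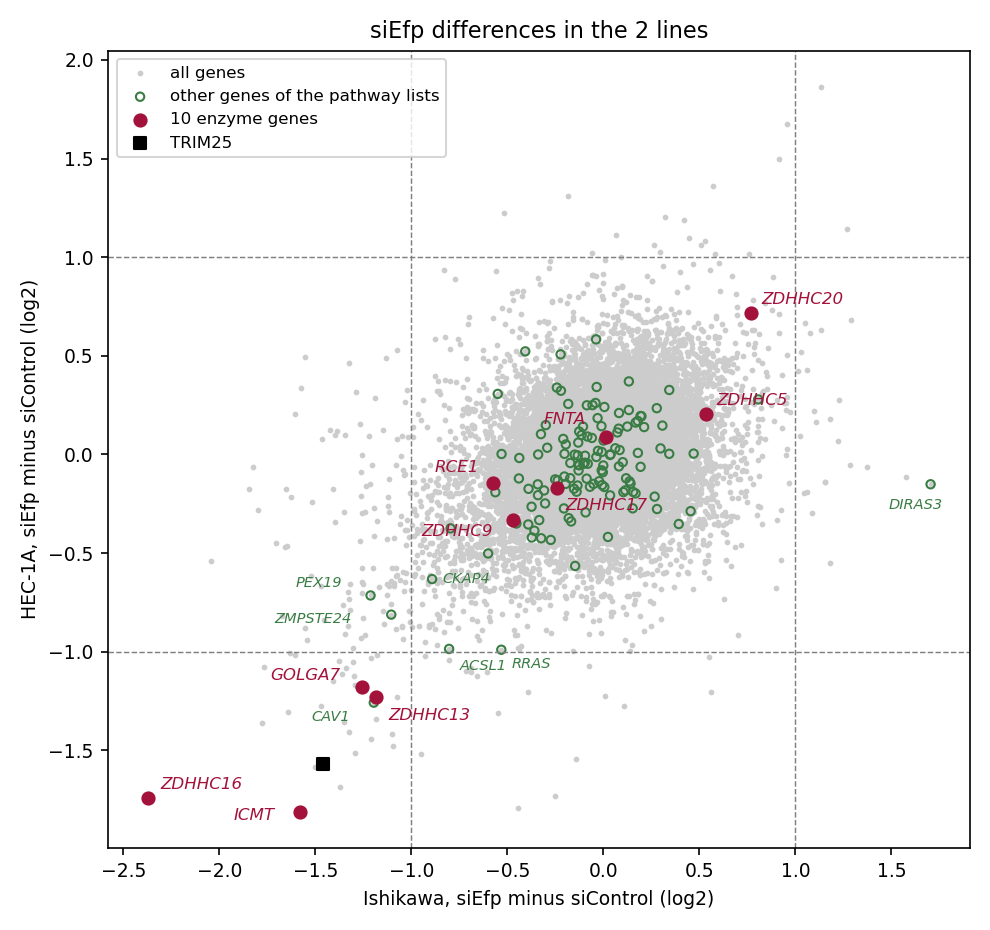
Log2 difference of each gene with siEfp in Ishikawa (x axis) and HEC-1A (y axis), siEfp minus siControl, 1 array per condition. Grey points are all 18417 genes, green circles the other genes of the pathway lists, red points the 10 enzyme genes, the black square TRIM25, and dashed lines mark a 2-fold difference. ZDHHC16, ICMT, GOLGA7 and ZDHHC13 lie in the lower left with TRIM25, ZDHHC20 lies at the upper right, and the other members lie within the cloud of all genes or at its edge.

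Of the CAAX route, the prenyltransferase subunit gene FNTA stood at its control level and the protease gene RCE1 was lower by less than ICMT. FNTB, also listed with the prenyltransferases, was not measured. FNTA, the α subunit shared by the farnesyl transferase and by the first geranylgeranyl transferase, had log2 signals of 8.95 and 8.97 in Ishikawa and of 9.21 and 9.30 in HEC-1A. Its differences were 0.01 and 0.09. RCE1, the protease that removes the last residues after prenylation, had signals of 9.04 and 8.47 in Ishikawa and of 8.99 and 8.85 in HEC-1A. It was 1.49-fold lower in Ishikawa, with a difference of -0.57, and 1.10-fold lower in HEC-1A, with -0.14. The lines differed by 0.43 in that difference. The SD of 0.229 over all genes is that of the gaps scaled to a single line, and an unscaled gap spreads wider. The gap has no test.

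The genes around the set were listed by function, and each list is given by its counts beside the medians of 0.01 over all genes. Of the zDHHC palmitoyltransferases, 23 of the 24 listed were measured. In Ishikawa 12 were lower and 11 higher, with a median of -0.04, where 47.6% of all genes were lower. In HEC-1A 14 were lower and 9 higher, with a median of -0.06, where 47.7% of all genes were lower. Over the 17 that are not in the set the medians were 0.01 and -0.05, and ZDHHC16 and ZDHHC13 were the only zDHHC genes at least 2-fold lower in either line. Among the 17, ZDHHC14 had the furthest difference in Ishikawa, 0.81, on dim signals of 3.87 and 4.68, and 0.28 in HEC-1A. Members and non-members of the set lay on both sides of 0. The other partner genes, SELENOK and GOLGA7B, had differences of -0.22 and -0.11 in Ishikawa and of 0.32 and 0.10 in HEC-1A.

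The genes for enzymes that remove palmitate had medians on either side of 0. Of 9 measured thioesterases 5 were lower in Ishikawa and 3 in HEC-1A, beside 47.6% and 47.7% of all genes, with medians of -0.11 and 0.12. None reached a 1.5-fold difference. The share of all genes past 1.5-fold was counted only for both lines together, 0.961% lower and 0.179% higher. LYPLA1, acyl-protein thioesterase 1, had differences of -0.34 and -0.21, LYPLA2 of -0.53 and 0.00, and the lysosomal enzyme gene PPT1 of -0.15 and -0.17. At the higher end ABHD13 had differences of 0.34 and 0.33 and ABHD17A, a depalmitoylase of Ras, of 0.31 and 0.15. Of the 8 measured genes of palmitoyl-CoA supply 7 were lower in Ishikawa and 5 in HEC-1A, beside 47.6% and 47.7% of all genes. Their medians were -0.18 and -0.19. ACSL1, a long-chain acyl-CoA synthetase, was the lowest, with differences of -0.80 and -0.99, and FASN, fatty acid synthase, was at -0.06 and 0.08. The 3 measured acyltransferases of secreted proteins (HHAT, HHATL and MBOAT4) differed by 0.34 at most in size.

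All 5 measured genes of CAAX processing were lower in both lines, as were 26.7% of all genes, with medians of -0.57 and -0.35. Besides ICMT and RCE1 these are ZMPSTE24, the protease that matures prelamin A and can cleave CAAX ends, and PCYOX1, of prenylcysteine breakdown, with its relative PCYOX1L. ZMPSTE24 had log2 signals of 10.60 and 9.50 in Ishikawa and of 9.86 and 9.05 in HEC-1A, differences of -1.10 and -0.81. PCYOX1 had differences of -0.13 and -0.08 and PCYOX1L of -0.39 and -0.35. ICMT and RCE1 entered this list as genes the readout had picked, and over the 3 others the medians were -0.39 and -0.35. Upstream, none of 6 measured prenyltransferase genes reached a 1.5-fold difference, with medians of -0.14 and -0.01. CHML, a Rab escort protein, was at -0.45 and -0.35, PTAR1 at -0.36 and -0.39 and RABGGTA at 0.19 and 0.20. The 7 measured genes of isoprenoid supply, which includes FDPS (-0.01 and -0.08), had medians of -0.01 and 0.02, with none at 1.5-fold. Of 6 carriers of prenylated proteins 5 were lower in both lines, beside 26.7% of all genes, with medians of -0.16 and -0.24. The lowest was ARL3 (-0.60 and -0.50), which releases farnesylated cargo from the carrier PDE6D (-0.18 and -0.32).

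The substrates showed single low genes and medians near 0. Of 43 measured proteins with a prenylated CAAX end 18 were lower and 5 higher in both lines, beside 26.7% and 31.1% of all genes, and the medians were -0.04 and -0.06. PEX19, a farnesylated import receptor of peroxisomal membrane proteins, was the lowest in Ishikawa, with -1.21 there and -0.71 in HEC-1A. RRAS was the lowest in HEC-1A, with -0.53 in Ishikawa and -0.99 in HEC-1A. DIRAS3 had 1.70 in Ishikawa, on signals of 7.52 and 9.22. In HEC-1A it had -0.15 on dim signals of 4.61 and 4.46, where a change would be compressed. Of 27 measured palmitoylated proteins 13 were lower and 6 higher in both lines, and the medians were -0.07 and -0.05. CAV1, caveolin 1, was at least 2-fold lower in both lines (-1.20 and -1.26), CKAP4, which ZDHHC2 palmitoylates, had -0.89 and -0.63, and the G-protein gene GNAQ had -0.80 and -0.37. These are mRNA signals, and neither the lipid groups on the proteins nor the amount of any enzyme was measured here.

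**Figure D3:**
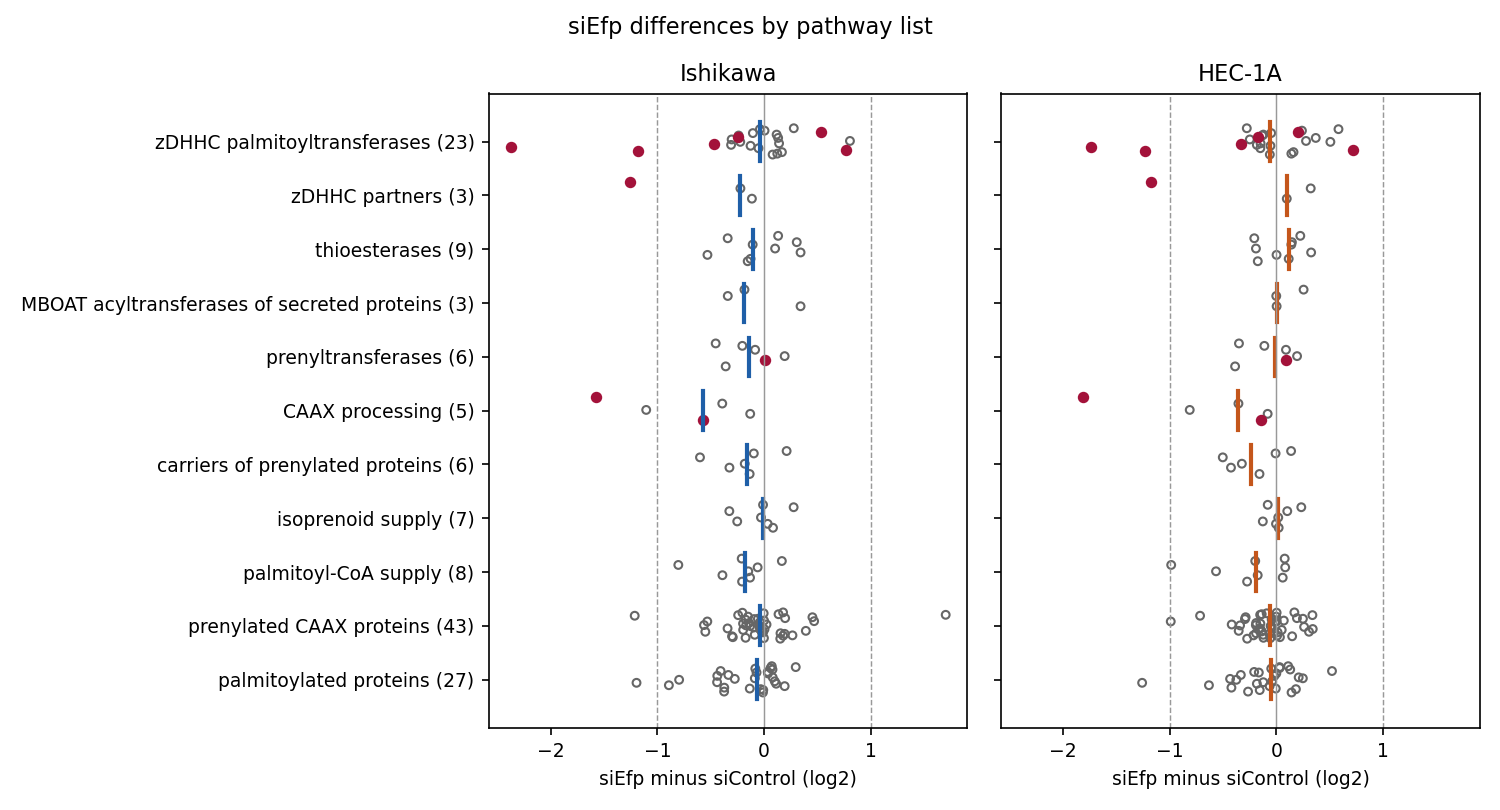
Log2 difference (x axis, siEfp minus siControl, 1 array per condition) of every measured gene in 11 pathway lists (rows, with the number of measured genes), in Ishikawa on the left and HEC-1A on the right. Red points are the 10 enzyme genes, open circles other genes, thick bars list medians, and dashed lines a 2-fold difference; the vertical scatter within a row has no meaning. All 5 points of CAAX processing lie left of 0 in both lines, and the zDHHC row is centred near 0 with ZDHHC16 and ZDHHC13 far to the left.

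For the 4 low members, the genes with the most similar pair of differences were found by distance in the plane of the Ishikawa and HEC-1A values, over 2 points per gene and among genes of at least a median signal on 1 array. GOLGA7 lay 0.0036 from DLST, a subunit of 2-oxoglutarate dehydrogenase (-1.26 and -1.17), 0.0371 from IMPA2 and 0.0681 from ENC1. ZDHHC13 lay 0.0322 from CAV1, 0.0914 from GOLGA7 and 0.0947 from DLST. ICMT lay 0.240 from TOR1B (-1.50 and -1.58), 0.242 from TCTN2 (-1.37 and -1.68) and 0.267 from TRIM25, the siRNA target. The genes nearest to ZDHHC16 were PARP1 at 0.703 (-1.78 and -1.36), ICMT at 0.799 and KRT80 at 0.851. ZDHHC16 came first in the ranking by the smaller decrease, where few genes lie, so its wide distances add nothing to that place. With 1 array per condition these distances have no error.

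The levels of the set in the 2 lines were compared next. The choice of genes did not use this contrast, but it used the siEfp differences from which the test takes its spread. The test was limma over the 4 arrays, HEC-1A minus Ishikawa with treatment as a block, Benjamini-Hochberg adjusted over all genes, two-sided, and its spread is the inequality of the siEfp differences of the lines. None of the 10 passed at an adjusted p under 0.05, while 35.2% of all genes did. At an unadjusted p under 0.05 there were 3 of 10, ICMT, GOLGA7 and FNTA, beside 43.5% of all genes. ICMT came nearest, with a log2 difference of -0.36 (SE 0.129, 95% interval -0.66 to -0.05, limma adjusted p = 0.0757), and it was lower in HEC-1A under both siRNAs. GOLGA7 was higher in HEC-1A by 0.29 (SE 0.121, interval 0.00 to 0.58, limma adjusted p = 0.112), and FNTA by 0.29 with the same limma adjusted p. The other 7 had limma adjusted p-values between 0.202 and 0.778. Of these, ZDHHC16 had the widest interval, -0.09 to 0.73 around a difference of 0.32: its siControl arrays differed by 0.00 between the lines and its siEfp arrays by 0.64. ZDHHC13 (-0.20 to 0.38), ZDHHC17 (-0.35 to 0.23) and ZDHHC20 (-0.37 to 0.21) had intervals that include 0. Their spread holds none between cultures of a line. These intervals therefore neither bound a difference between the lines nor show that the lines have equal levels.

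Genes of the same families were compared in the same fit, in which 35.2% of all genes passed. Of the 17 zDHHC genes outside the set 8 passed, 7 of them higher in HEC-1A. ZDHHC4 was higher by 1.93, 3.80-fold (SE 0.187, limma adjusted p = 0.000429), and ZDHHC21 had a difference of -0.98 (SE 0.121, limma adjusted p = 0.0012). Both kept their side in each condition. Of the 3 CAAX-processing genes outside the set all passed, with differences of -0.59 for ZMPSTE24, -0.41 for PCYOX1 and 0.93 for PCYOX1L. Whether members and relatives differ in how often they pass was not tested.

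**Figure D4:**
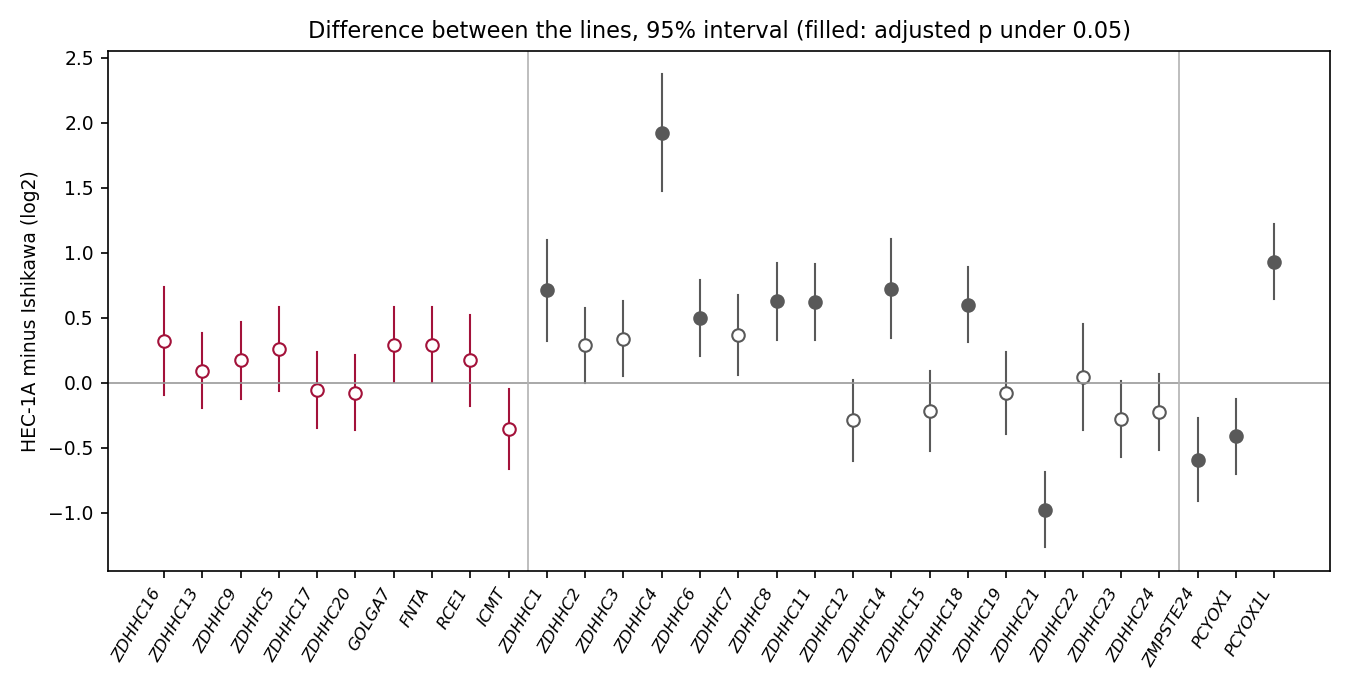
Difference between the lines (y axis, HEC-1A minus Ishikawa, log2) of the 10 enzyme genes (red, left), the 17 other zDHHC genes (middle) and the 3 other CAAX-processing genes (right), from limma over 4 arrays. Bars are 95% intervals and filled points have an adjusted p under 0.05. All 10 red points are open and lie between -0.36 and 0.32, whereas ZDHHC4 reaches 1.93.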

How the data were processed

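RNA of 4 cultures was hybridised to 1 Affymetrix array each, after 150 ng of total RNA had been made into biotin-labelled cRNA per the labels. The deposited values are log2 signals of probe sets, which the authors obtained from Affymetrix Expression Console by RMA, per the submitters' processing notes, with versions and genome build not given in the sources used here. The paper names an exon array, while the probe set numbers are those of the maker's gene array. Since RMA gives the probe intensities of all arrays one distribution before summarizing them, a shift common to every gene would not be seen. Differences of dim probe sets are compressed. No depth applies to arrays, and their number limits the precision.

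Groups came from the labels. Of 33297 probe sets, 19460 had 1 gene symbol in the annotation used here, 1754 several and 12083 none. Averaging those with 1 symbol yielded 18417 genes, of which 769 had several probe sets. The RefSeq table held the gene ID of 19429 probe sets, and 0 symbols differed there. In each line siControl was subtracted from siEfp, and genes were counted at 2-fold. limma 3.58.1 in R 4.3.3 tested HEC-1A minus Ishikawa across all genes with 1 residual degree of freedom. In simulated data for that fit over 18417 genes, with spread drawn from limma's prior, 0 of 50 genes were called at a log2 difference of 0.5, 37 of 50 at 1 and 50 of 50 at 1.5, with 10 false calls. There 18217 genes had no difference, whereas 35.2% of all genes passed in the data, so the adjustment was stricter and these counts do not carry over. In the data ZDHHC6 passed at 0.50 (limma adjusted p = 0.0199) and GNG5 did not at 0.54 (limma adjusted p = 0.0686). Python 3.11.15 was used for the rest.

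The 10 genes, the pathway lists, the tests and the alternatives were chosen with earlier results of these data known. The lists come from general knowledge. Genes named are the 10, TRIM25, up to 3 at each end of a list by the mean of both differences, any list member past 2-fold, and the 3 genes nearest to each of the 4 low members. ZDHHC4, ZDHHC6, ZDHHC21, FNTB, the marker genes and the genes flagged below stand outside that rule. Promoter sequences are RefSeq's for GRCh38.p14. Probe sets have no coordinates here, as no build is named. Alternatives were centring, a second quantile normalization, the brightest probe set, log2 of the linear signal plus 32, a 1.5-fold limit, no dim genes, and, in limma, a fit without the block or with an intensity trend, siControl arrays alone and each array left out.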

Additional observations from a re-analysis of the deposited data

Results flagged for a closer look

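In 6 genes of the pathway lists siEfp went with a higher signal in one line and a lower signal in the other. None of them is among the 10 enzyme genes. The share of all genes with such a pair of differences was not counted, so nothing is read from the number 6. In each of the 6 genes both differences were larger in size than 0.229, the SD of the gaps between the lines over all genes, scaled to a single line. The difference between the lines was not tested, since each line has 1 array per condition. ZDHHC1, a palmitoyltransferase gene, had a log2 difference of 0.28 in Ishikawa and -0.28 in HEC-1A, and HEC-1A minus Ishikawa was -0.56. FYN, a palmitoylated kinase of the Src family, had -0.41 and 0.52, with 0.93 between the lines. Of genes for prenylated proteins, GNG5 had 0.45 and -0.29, with -0.74 between the lines, and RAP1A had 0.39 and -0.35, with -0.75. For RND2 and RND3 the values were -0.24 and 0.34, with 0.58 between the lines, and -0.55 and 0.31, with 0.86. Some of these signals were dim, below the gene medians of 6.25 to 6.34. In siControl and siEfp they were 5.39 and 5.67 for ZDHHC1 in Ishikawa. In HEC-1A they were 5.07 and 5.59 for FYN and 4.92 and 5.26 for RND2.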

How the results depend on the processing

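With centring, a second quantile normalization and log2 of the linear signal plus 32, the siEfp differences of the 10 genes and TRIM25 kept their direction, and the count of members at least 2-fold lower stayed at 4, as it did at 1.5-fold. The furthest move was ICMT in HEC-1A, to -1.64 on the scale of the linear signal plus 32. The brightest probe set and the filter on dim genes could not change these values, since each gene has 1 probe set and none is dim. The count of members that differ between the lines was 1, ICMT, with an intensity trend (limma adjusted p = 0.0493), with a second quantile normalization (0.049) and without dim genes (0.0441), so ICMT stands at the threshold, and 0 without the treatment block. The line difference of ZDHHC16 was 0.00 in the siControl arrays alone. With 1 array left out, the block leaves no residual degree of freedom, and a fit without it mixes the siEfp difference into that of the lines. Its 0 calls therefore say nothing about single arrays, and in all genes but FNTA the line difference changed sign in 1 or more of these fits. The ranges were -0.87 to 1.51 for ZDHHC16, -0.52 to 0.71 for ZDHHC13, -0.065 to 0.41 for ZDHHC9, -0.008 to 0.53 for ZDHHC5, -0.18 to 0.063 for ZDHHC17, -0.46 to 0.31 for ZDHHC20, -0.34 to 0.92 for GOLGA7, -0.12 to 0.46 for RCE1 and -1.26 to 0.55 for ICMT. These fits and the list medians under other settings were added after the data had been seen. No value here measures the spread between cultures of a line.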
